A study of Mus musculus with 12 samples.

Results

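Mest and 9 other imprinted growth genes were followed through RNA sequencing of HM1 cells, a line from a mouse ovarian cancer, grown in culture or as tumors after knockdown of St3gal3, a sialyltransferase gene. The 10 genes, Mest, Plagl1, Cdkn1c, Grb10, Igf2, Dlk1, Meg3, H19, Peg3 and Ndn, were taken by symbol from tables of 56061 genes for culture and 55878 for tumors, and all 10 were listed in each of the 12 libraries. The group was chosen by the tumor values of Mest, which was lower with the knockdown in these same libraries, and the other 9 were added as imprinted genes of growth. The knockdown change of the 10 genes in tumors is therefore given as a description, which supports no statement about them. The 4 groups held 3 libraries each: tumors with the shST3GAL3 hairpin, tumors with the shControl hairpin, cultured HM1 cells with shST3GAL3, and cultured HM1 cells with shControl. Controls are labelled wild type but carry a hairpin too. The labels give no time in culture and, for tumors, no host, age, site or day. Whether replicates came from different cultures or animals is not stated. The p-values therefore reflect the spread among the samples at hand, some of which may be technical.

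An imprinted gene is read wholly or mainly from the chromosome of 1 parent, in many cases as set by DNA methylation laid down in egg or sperm. Many such genes govern growth before birth. They are high in fetal mesoderm, placenta and embryonic muscle and fall to low levels in most adult tissues. Mest, Igf2, Peg3, Dlk1, Plagl1 and Ndn are read from the father's copy. Meg3, H19 and Cdkn1c are read from the mother's copy, and so is Grb10 in most tissues outside the brain. Several sit in pairs: Igf2 and H19 share a domain on chromosome 7, and Dlk1 and Meg3 share a domain on chromosome 12. Cdkn1c also lies on chromosome 7.

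The upstream sequences of Mest, Meg3 and Grb10 are shown because these were the 3 members whose tumor levels did not overlap between the groups. Each is the 250 bases before the RefSeq start with the most CpG dinucleotides (GRCm38.p6, 5′ to 3′ on the gene's strand). Capitals mark TGCCGC or its reverse complement GCGGCA, the core letters bound by the imprint-keeping protein Zfp57 when methylated.
Mest, chr6:30737800-30738049, plus strand: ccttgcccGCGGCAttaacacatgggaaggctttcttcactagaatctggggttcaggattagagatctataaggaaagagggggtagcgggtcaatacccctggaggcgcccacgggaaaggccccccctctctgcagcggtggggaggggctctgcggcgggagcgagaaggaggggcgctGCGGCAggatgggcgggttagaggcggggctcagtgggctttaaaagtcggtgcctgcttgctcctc
Meg3, chr12:109540746-109540995, plus strand: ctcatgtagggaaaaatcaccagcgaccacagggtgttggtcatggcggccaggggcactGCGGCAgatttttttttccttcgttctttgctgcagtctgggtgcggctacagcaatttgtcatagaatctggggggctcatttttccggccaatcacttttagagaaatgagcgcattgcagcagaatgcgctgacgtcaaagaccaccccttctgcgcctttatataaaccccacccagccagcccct
Grb10, chr11:12037421-12037670, minus strand: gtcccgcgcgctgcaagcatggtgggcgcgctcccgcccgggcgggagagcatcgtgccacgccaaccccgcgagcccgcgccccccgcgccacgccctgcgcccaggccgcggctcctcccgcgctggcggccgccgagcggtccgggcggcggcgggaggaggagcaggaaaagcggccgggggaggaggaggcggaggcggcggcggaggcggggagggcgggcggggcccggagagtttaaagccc
The Mest sequence holds 14 CpG and the letters at 2 places, the Meg3 sequence 10 CpG and the letters at 1 place, and the Grb10 sequence 40 CpG and the letters at 0 places. Over all 32851 RefSeq starts the median was 6 CpG, and 8.68% held the letters on either strand. Of the 8 members with an entry, 3, Mest, Meg3 and Plagl1, had the letters upstream of some start. Counted by start, 4 of the 15 sequences of the 8 members held them, and the 2 of Mest among these 4 overlap. A match is a description of the sequence and not of binding, and the libraries do not show which start was used.

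St3gal3, the target of the hairpin, was at 7.28, 5.87 and 5.76 TPM in shST3GAL3 tumors, against 14.00, 15.39 and 15.36 TPM in shControl tumors. In culture it was at 1.52, 1.25 and 1.83 TPM in shST3GAL3 cells, against 9.59, 12.52 and 12.93 TPM in shControl cells. TPM, a relative abundance that sums to the same total in each library, corrects for gene length, so levels can be set beside each other between genes. The depth of the libraries is unknown. Between 14046 and 14534 genes reached 1 TPM in a tumor and between 12629 and 13145 in a culture library. Each table was scaled on its own, and levels in culture and in tumors are compared here only as a description. The labels call the tumors murine ovarian cancer cells. Among the epithelial markers, Krt8, a keratin, was the highest there (mean 1200 TPM over the 6 tumors), and Epcam and Cldn4 stayed below 1 TPM in every tumor. The tumors also held transcripts of other cell types, with 10 fibroblast markers summing to 1021 to 1506 TPM in shST3GAL3 tumors and 1360 to 1825 TPM in shControl tumors. In culture these 10 markers summed to 1.30 to 2.35 TPM.

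The 10 imprinted genes were near 0 in cultured HM1 cells, and 4 of them, Mest, Meg3, Grb10 and H19, reached at least 1 TPM in every tumor. The highest culture value of any member was 0.33 TPM, that of Mest in shST3GAL3 culture 3. Cdkn1c was listed at 0 in all 6 culture libraries, and H19 and Dlk1 in 5 of 6. In tumors 7 members, all but Igf2, Dlk1 and Plagl1, were above their highest culture value in every library. Such a pattern was shared by other genes: of 12777 shared identifiers at or above 1 TPM in all 6 tumors, 1206 (9.44%) stayed below 1 TPM in all 6 culture libraries.

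By their median over the 6 tumors, the genes ran from Mest at 16.2 TPM through Meg3 at 10.5, Grb10 at 4.20, H19 at 4.15, Ndn at 0.885, Peg3 at 0.680, Igf2 at 0.380, Plagl1 at 0.375 and Cdkn1c at 0.285 to Dlk1 at 0.050 TPM. Ranges of neighbours in this order overlapped everywhere except between H19, whose lowest tumor was at 2.97 TPM, and Ndn, whose highest was at 1.40 TPM. The 10 genes thus fell into 4 of moderate level and 6 at or below about 1 TPM.

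**Figure D1:**
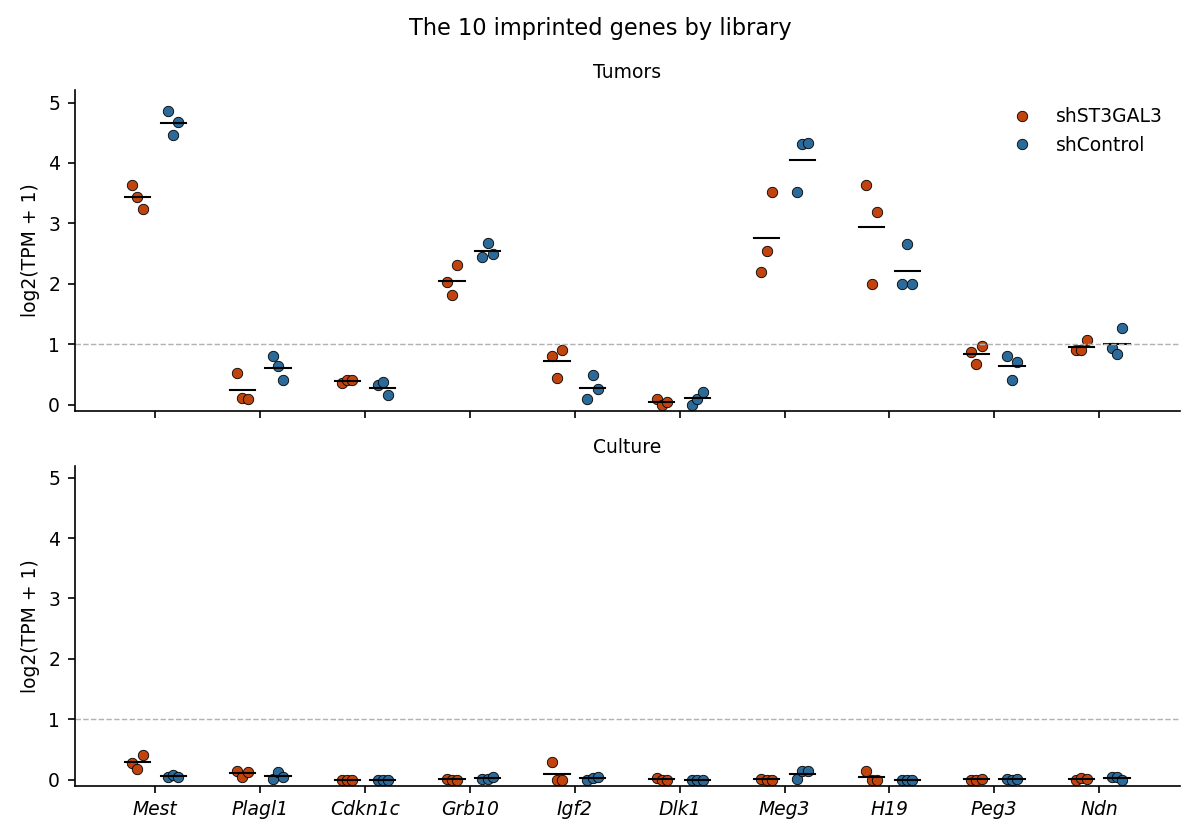
Levels of the 10 imprinted genes as log2(TPM + 1) in the 12 libraries, with tumors above and culture below. Points are libraries, short lines are group means, and the dashed line marks 1 TPM. Mest, Meg3, Grb10 and H19 lie above that line in every tumor and all genes lie below it in culture.

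Mest encodes a protein of the endoplasmic reticulum related to hydrolases, named for its high level in embryonic mesoderm. It was at 11.42, 9.80 and 8.41 TPM in shST3GAL3 tumors, against 27.91, 21.05 and 24.57 TPM in shControl tumors. The groups did not overlap, and the knockdown mean was 40.3% of the control mean. On the log2(TPM + 1) scale the change was -1.23 (limma SE 0.140), and without any 1 tumor it lay between -1.33 and -1.13. In culture Mest was at 0.21, 0.13 and 0.33 TPM in shST3GAL3 cells, against 0.03, 0.06 and 0.03 TPM in shControl cells. Every knockdown culture was thus above every control culture, at levels far below those in tumors. No other member separated the culture groups, where 7.71% of all genes tested did so (5.25% higher and 2.45% lower). No member was among those tested genes, so that share is no background for genes this low. Mest did not pass the filter of a group mean of 1 TPM in culture. Without that filter its culture change of 0.23 was not called (limma adjusted p = 0.925, higher in 3 of 3 libraries).

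**Figure D2:**
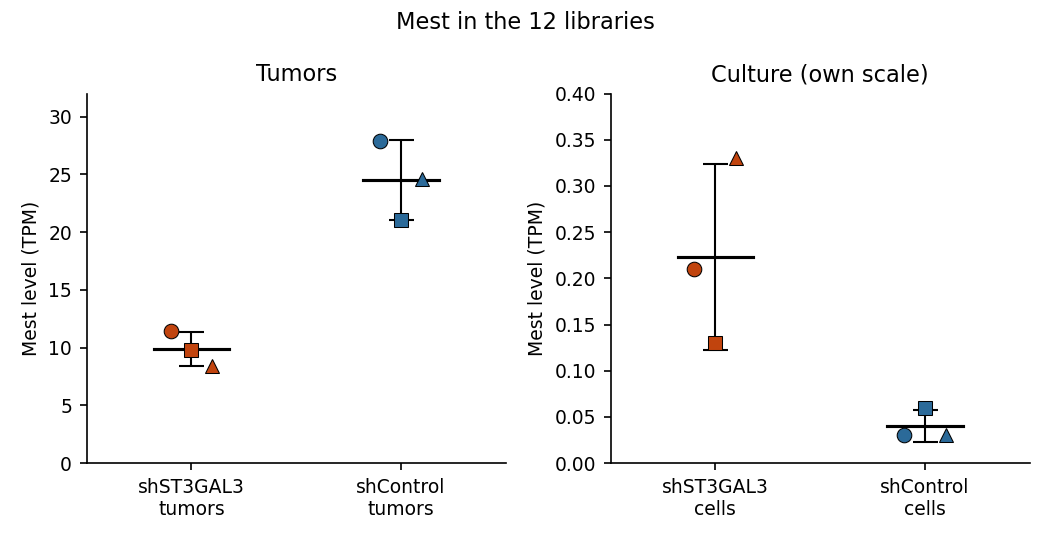
Mest levels in TPM in tumors (left) and culture (right, on its own scale), with shST3GAL3 left of shControl in each. Points are libraries (circle, square and triangle for replicates 1, 2 and 3), and lines and bars are means ± SD, n = 3. Knockdown tumors sit between 8.41 and 11.42 TPM, below the 21.05 to 27.91 TPM of control tumors, while knockdown cultures sit between 0.13 and 0.33 TPM, above the 0.03 to 0.06 TPM of control cultures.

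In tumors 5 members passed the filter of a mean of 1 TPM in some group: Mest, Meg3, Grb10, H19 and Ndn. Of these 5, 1 lay past the limma threshold used for all genes, as did 1.51% of all 14915 genes. That gene was Mest, whose own tumor values chose the group, so its place past the threshold is no finding. Mest, Meg3 and Grb10 were lower in every knockdown tumor than in every control tumor, as were 14.9% of all genes tested. No tested member was higher in every knockdown tumor, against 9.81% of all genes, and 24.7% of all genes did not overlap in either direction. Since the group was chosen with this contrast in view, these counts say nothing about imprinted genes. In culture no member passed the filter, and 0.0296% of the 13492 genes tested were called (0.0148% higher and 0.0148% lower).

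Among regulators of growth signals and the cell cycle, Grb10, an adaptor that dampens the insulin and IGF1 receptors, was at 3.07, 2.53 and 3.94 TPM in shST3GAL3 tumors, against 4.46, 5.37 and 4.61 TPM in shControl tumors. The log2 change was -0.49 (SE 0.153), and the nearest libraries of the groups were 3.94 and 4.46 TPM. Plagl1 encodes a zinc finger transcription factor that acts on Igf2, H19 and other imprinted genes in mouse. It was at 0.43, 0.08 and 0.06 TPM in shST3GAL3 tumors, against 0.74, 0.55 and 0.32 TPM in shControl tumors, with an overlap of 1 tumor. Cdkn1c encodes the cyclin-dependent kinase inhibitor p57. Its levels were 0.28, 0.32 and 0.33 TPM in shST3GAL3 tumors, against 0.25, 0.29 and 0.11 TPM in shControl tumors, and the groups overlapped. Plagl1 and Cdkn1c did not pass the filter.

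Of the chromosome 12 pair, Meg3, a long noncoding RNA, was at 3.57, 4.85 and 10.47 TPM in shST3GAL3 tumors, against 10.49, 18.84 and 19.10 TPM in shControl tumors. The groups barely separated, at shST3GAL3 tumor 3 and shControl tumor 1. The log2 change of -1.30 was close in size to that of Mest, but its SE of 0.408 was larger. Dlk1, which encodes a membrane protein related to Notch ligands, lay between 0 and 0.15 TPM in all tumors. Genes of the same domain that are not members were set beside Meg3 after their values were seen. Rian, a noncoding RNA downstream of Meg3, was at 6.88, 6.0 and 9.18 TPM in shST3GAL3 tumors, against 11.41, 15.80 and 16.56 TPM in shControl tumors (log2 change -0.90, limma adjusted p = 0.0699, lower in 3 of 3 libraries). Dio3, an enzyme that inactivates thyroid hormone, was at 1.95, 1.40 and 2.53 TPM in shST3GAL3 tumors, against 4.43, 3.73 and 6.06 TPM in shControl tumors (log2 change -0.95, limma adjusted p = 0.0771, lower in 3 of 3 libraries). Mirg, a microRNA host of the same domain, had a log2 change of 0.10 with overlapping groups (limma adjusted p = 0.826). None of Rian, Dio3 and Mirg passed the threshold.

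Of the chromosome 7 pair, Igf2 encodes a fetal growth factor and H19 a noncoding RNA controlled by the same imprint. H19 was at 11.38, 2.97 and 8.11 TPM in shST3GAL3 tumors, against 3.01, 5.28 and 3.00 TPM in shControl tumors. Knockdown tumors 1 and 3 were high and knockdown tumor 2 was the lowest of all 6. Igf2 was at 0.74, 0.36 and 0.86 TPM in shST3GAL3 tumors, against 0.07, 0.40 and 0.19 TPM in shControl tumors, also highest in knockdown tumors 1 and 3. Transcripts of skeletal muscle, a tissue in which H19 stays high after birth, were also highest in knockdown tumors 1 and 3. The 12 muscle markers summed to 96.5, 15.6 and 74.6 TPM in shST3GAL3 tumors, against 3.97, 16.1 and 4.94 TPM in shControl tumors. Elsewhere the order differed: shST3GAL3 tumor 2, the lowest for H19, had a larger muscle sum than shControl tumors 1 and 3. Of these markers Acta1, the actin of skeletal muscle, was the highest, Myh4, Ttn, Pax7 and Myod1 stayed below 1 TPM in every tumor, and none was at 0 throughout. The part of muscle in the H19 and Igf2 levels was not tested. Without shST3GAL3 tumors 1 and 3, the log2 change of H19 was -0.23 in place of 0.72 and that of Igf2 was 0.17 in place of 0.43. Each of these compares 1 knockdown tumor with 3 control tumors. The tumors left out were the highest for both genes, so the lower changes were fixed by that choice.

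The other paternally read members were low and overlapped between the groups. Peg3, a zinc finger protein of mesoderm and muscle stem cells, was at 0.83, 0.60 and 0.96 TPM in shST3GAL3 tumors, against 0.74, 0.33 and 0.62 TPM in shControl tumors. Ndn, which encodes the growth-restraining protein necdin, was at 0.86, 0.86 and 1.10 TPM in shST3GAL3 tumors, against 0.91, 0.78 and 1.40 TPM in shControl tumors. The log2 change of Ndn was -0.06, and 0.07 without shControl tumor 3.

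Markers of other cell types were set beside Mest in the same tumors. In bulk tissue, fewer cells of a type and less RNA per cell cannot be told apart. Fibroblast markers, with Col1a1 the highest, averaged 76.5% of the control mean in knockdown tumors, with 2 of 10 lower in every knockdown tumor. The 9 pericyte and smooth muscle markers summed to 137, 156 and 192 TPM in shST3GAL3 tumors, against 179, 187 and 206 TPM in shControl tumors, and 4 of the 9 were lower in every knockdown tumor. Acta2, an actin of smooth muscle and activated fibroblasts, held the largest share of that sum, and its levels overlapped between the groups. It was at 82.07, 91.71 and 123.1 TPM in shST3GAL3 tumors, against 96.39, 99.53 and 98.45 TPM in shControl tumors. Endothelial markers, led by Pecam1, averaged 75.6% of the control mean, and 2 of 10 were lower in every knockdown tumor. Epithelial markers averaged 80.6%, with 4 of 8 lower. Macrophage markers, led by C1qa, averaged 112%, with 1 of 8 higher, and T cell markers, led by Cd3g, averaged 184%, with 6 of 8 higher in every knockdown tumor. Of all genes tested, 14.9% were lower in every knockdown tumor than in every control tumor, and 9.81% were higher. Adipocyte markers, led by Pparg, averaged 111%, with Plin1, Lep, Cidec and Retn below 1 TPM in every tumor. Pparg was also at 41.59 to 53.36 TPM in culture. Mesothelial markers were near 0: Wt1 led with a mean of 1.60 TPM, and Upk3b, Lrrn4, Upk1b and Gpm6a stayed below 1 TPM.

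Mest was lower relative to every one of the 9 marker sums, with no overlap between the groups. Mest was chosen by its fall in these tumors, and no marker sum averaged below 75.6% of its control mean. Lower ratios thus follow from that choice and support no statement about cell types. Per 100 TPM of pericyte and smooth muscle markers, Mest was at 8.36, 6.30 and 4.38 TPM in shST3GAL3 tumors, against 15.6, 11.3 and 11.9 TPM in shControl tumors. Per 100 TPM of fibroblast markers it was at 1.12, 0.958 and 0.559 TPM in shST3GAL3 tumors, against 1.92, 1.55 and 1.35 TPM in shControl tumors. These ratios averaged 49.1% and 54.7% of the control mean, where Mest itself averaged 40.3%. Acta2, whose levels overlapped between the groups, held the largest share of the pericyte and smooth muscle sum. The part of each cell type in the Mest levels was not tested.

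**Figure D3:**
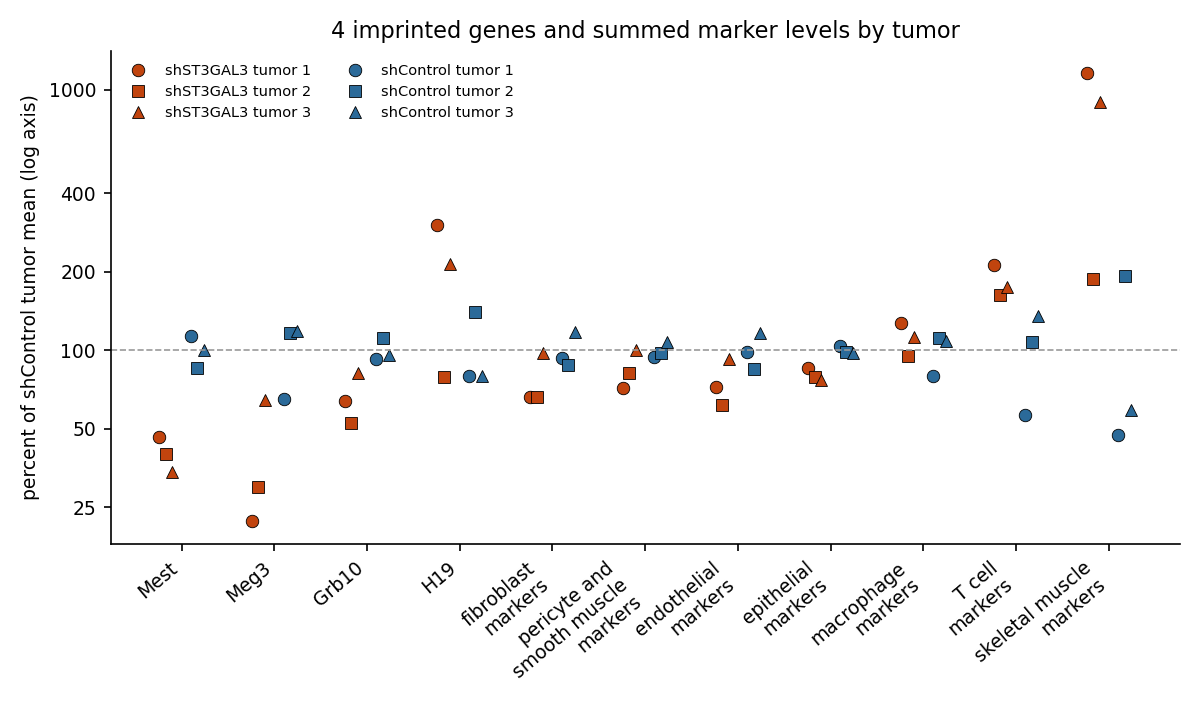
Mest, Meg3, Grb10, H19 and 7 summed marker lists in each tumor, as a percentage of the shControl tumor mean on a log axis. Orange points left of blue points are shST3GAL3 and shControl tumors, and symbols mark replicates 1, 2 and 3. Mest averages 40.3% in knockdown tumors and fibroblast markers 76.5%, while H19 and skeletal muscle markers are highest in knockdown tumors 1 and 3.

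Genes with a pattern like that of Mest were sought by the root mean square difference of log2(TPM + 1) values, each gene centred on its own mean. Over the 6 tumors, among 11687 other genes with official symbols and a group mean of at least 2 TPM, the nearest were St3gal3 (0.167), the potassium channel subunit Kcne4 (0.193), the histone gene H2bc4 (0.207), the cell adhesion gene Nrcam (0.232) and the histone gene H3c15 (0.235). St3gal3 differed from Mest in culture, where its highest level was 12.93 TPM against 0.33 TPM for Mest. Over all 12 libraries, among 11972 genes, the nearest were the chemokine gene Ccl22 (0.219), Rgs5 (0.241), a regulator of G protein signaling used as a pericyte marker, Cthrc1 (0.252), the pericyte potassium channel gene Kcnj8 (0.257) and Itm2a (0.291). All 5 were at or below 0.14 TPM in every culture library. The genes of both rankings were picked for nearness to Mest, itself chosen by its fall in these tumors. Their lower levels in knockdown tumors, and the low culture levels of the second ranking, thus follow from that choice and support no statement. Rgs5 was at 8.44, 10.75 and 9.05 TPM in shST3GAL3 tumors, against 16.48, 16.33 and 19.97 TPM in shControl tumors. Kcnj8 was at 7.45, 10.04 and 7.19 TPM in shST3GAL3 tumors, against 15.37, 13.71 and 17.58 TPM in shControl tumors. Rgs5 and Kcnj8 are among the 4 of 9 pericyte and smooth muscle markers that were lower in every knockdown tumor. The rest of that list, Acta2 included, overlapped between the groups. Des, named outside the rule for named genes, was at 8.48, 6.12 and 9.55 TPM in shST3GAL3 tumors, against 4.1, 6.57 and 5.12 TPM in shControl tumors. No other member came as near: over the 6 tumors Grb10 was at 0.471 and Meg3 at 0.627. Plagl1 at 0.452 and Dlk1 at 0.616 stayed below 1 TPM in every tumor, under the 2 TPM asked of the genes above. For genes that low the difference mostly reflects the spread of Mest itself, so their values show no likeness.

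The question of whether other imprinted genes moved with the knockdown was asked of 61 listed genes beside the 10. Of 34 that passed the filter in tumors, limma called 1 lower and 0 higher, where 0.436% of all genes tested were called lower and 1.07% higher. Phlda2, which limits growth of the placenta and is read from the mother's copy, fell to 10.10, 11.98 and 10.98 TPM in shST3GAL3 tumors, against 18.82, 17.88 and 18.00 TPM in shControl tumors (log2 change -0.68, SE 0.0882, limma adjusted p = 0.0172, lower in 3 of 3 libraries). Over the alternatives its adjusted p lay between 0.000506 and 0.219. It was not called by limma without shControl tumor 2 (adjusted p = 0.0656), shControl tumor 3 (0.0579) or shST3GAL3 tumor 1 (0.0768), nor without shST3GAL3 tumors 1 and 3 (0.219) or the filter (0.0514). With replicate number as a block in the fit Phlda2 was not called either. In culture Phlda2 was at 128.46, 115.58 and 124.73 TPM in shST3GAL3 cells, against 119.78, 115.45 and 113.60 TPM in shControl cells. Unlike Mest it was thus high in the cultured cells, and it was not called there (log2 change 0.08, limma adjusted p = 1.00).

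The 34 genes had a median log2 change of -0.11 in tumors, against -0.05 for all genes tested. Of these 34, 25 (73.5%) had negative changes, against 60.4% of all genes. Lower in every knockdown tumor than in every control tumor were 10 (29.4%), against 14.9%. Some of these 10 are linked: Copg2 overlaps Mest, Airn overlaps Igf2r, and Rian and Dio3 share the domain of Meg3. The 29.4% thus does not count separate loci. In culture 27 passed the filter and 0 were called, with a median of -0.03 against 0.02 for all genes. Before adjustment, 8 of the 34 in tumors and 0 of the 27 in culture had a limma p under 0.05. Over all genes tested these numbers were 2787 of 14915 in tumors and 462 of 13492 in culture. The 61 genes fell into further classes by level. At or above 1 TPM in all 12 libraries were 24. Below 1 TPM in all 12 were another 24, among them Peg10, Magel2 and Ins2. Like Mest, 7 were below 1 TPM in all culture libraries and at or above it in all tumors: Sgce, Tspan32, Rian, Mirg, Dio3, Gatm and Gab1.

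**Figure D4:**
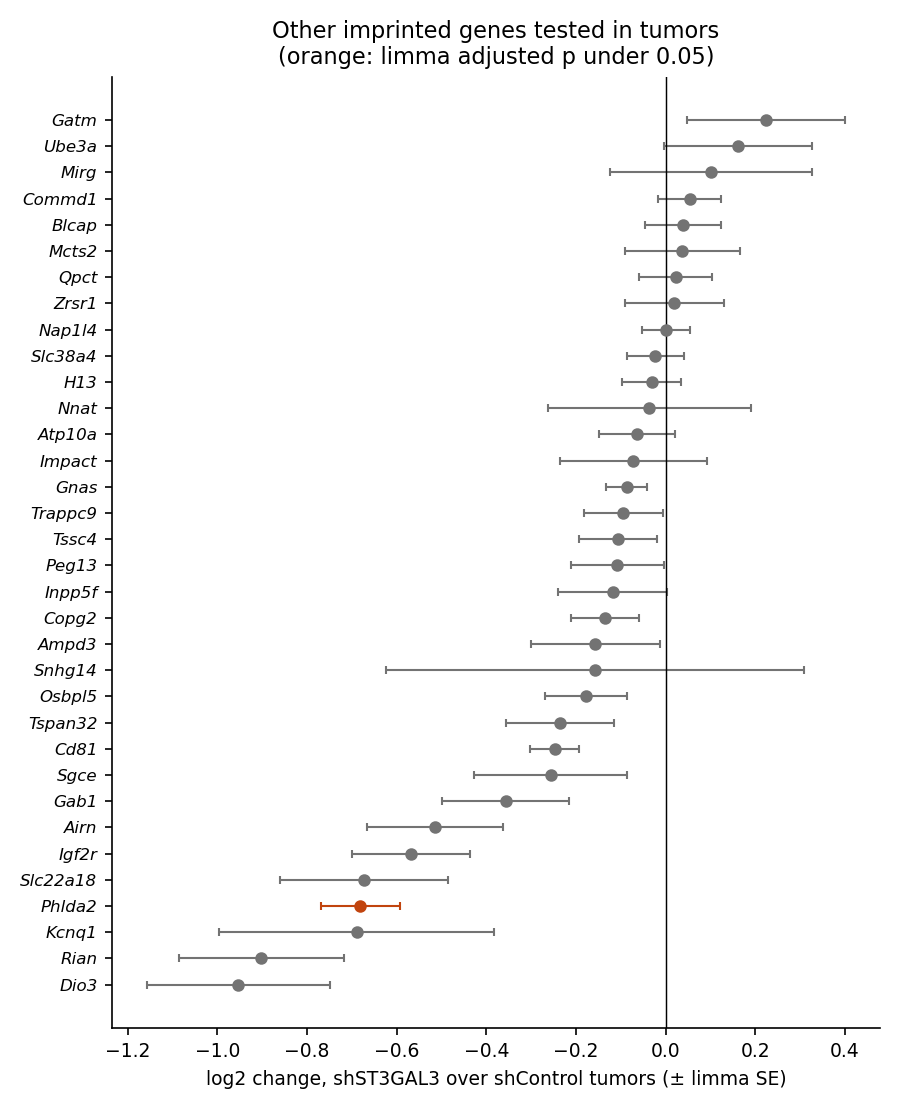
Log2 changes on the log2(TPM + 1) scale, shST3GAL3 over shControl tumors, of the 34 other imprinted genes that passed the filter. Points are estimates from 3 tumors per group, bars are limma SEs, and orange marks an adjusted p under 0.05. Phlda2 at -0.68 was called, while Rian and Dio3 had lower estimates with larger SEs and were not.

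Partners of the members were read from the same fits. The insulin and IGF system is the one on which Igf2 and Grb10 act. Of its ligands and receptors 4 passed the filter in tumors, and limma called 0, with 2 at an unadjusted p under 0.05. An unadjusted limma p under 0.05 was reached by 2787 of all 14915 genes tested in tumors. That share stands beside each such count of the lists below. Igf2r, a maternally read receptor that clears Igf2, was at 11.64, 11.67 and 15.08 TPM in shST3GAL3 tumors, against 17.68, 18.41 and 22.16 TPM in shControl tumors (log2 change -0.57, limma adjusted p = 0.0899, lower in 3 of 3 libraries). Its antisense neighbour Airn overlaps it on the opposite strand, and the sources used here do not give strand use. Igf1r, the signaling receptor, averaged 11.3 ± 1.36 TPM in shST3GAL3 tumors and 13.8 ± 0.278 TPM in shControl tumors (SD, n = 3 each; limma adjusted p = 0.208). Of 9 IGF-binding proteins and their proteases tested, limma called 1 lower and 0 higher, where 0.436% of all genes were called lower, and 4 had an unadjusted p under 0.05. Igfbp4, a secreted carrier that restrains IGFs, fell to 765.23, 743.66 and 738.28 TPM in shST3GAL3 tumors, against 980.26, 990.61 and 1072.07 TPM in shControl tumors (log2 change -0.44, SE 0.0528, limma adjusted p = 0.0152). With replicate number as a block in the fit Igfbp4 was not called. It was abundant in culture too, at 904 to 999 TPM in shST3GAL3 cells and 913 to 1009 TPM in shControl cells (log2 change -0.03, limma adjusted p = 1.00). The tumor call was lost by limma without shST3GAL3 tumor 1 (adjusted p = 0.0640), shST3GAL3 tumor 2 (0.0685) or tumors 1 and 3 of that group (0.208), among the libraries left out, with a range of 0.00162 to 0.208 over the alternatives.

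Among 6 other receptor adaptors tested, limma called 0, with 2 at an unadjusted p under 0.05, a level reached by 2787 of all 14915 genes. Irs1, a docking protein of the insulin receptor, averaged 3.39 ± 0.248 TPM in shST3GAL3 tumors and 5.32 ± 0.621 TPM in shControl tumors (SD, n = 3 each; limma adjusted p = 0.0894). Nedd4, a ubiquitin ligase that binds Grb10, had a log2 change of -0.24 (limma adjusted p = 0.114). Of the mRNA-binding proteins, Igf2bp1 and Igf2bp2 passed the filter. Igf2bp1 had a log2 change of -0.001 (limma adjusted p = 0.999) and Igf2bp2 one of 0.01 (limma adjusted p = 0.966). Of 6 inhibitors of cyclin-dependent kinases beside Cdkn1c, limma called 0, with 1 at an unadjusted p under 0.05. Cdkn1a had a log2 change of -0.15 and Cdkn2d one of 0.13 (limma adjusted p = 0.237 and 0.323). The relatives of Plagl1, Plag1 and Plagl2, had changes of -0.27 and 0.21 (limma adjusted p = 0.454 and 0.341). Of 5 relatives of Ndn in the MAGE family, limma called 0, with 2 at an unadjusted p under 0.05, and Maged1 and Maged2 had changes of -0.41 and -0.21 (limma adjusted p = 0.0894 and 0.267).

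Of 10 genes of the Notch system tested beside Dlk1, all had negative changes, as did 60.4% of all genes, with a median of -0.34 against -0.05 for all genes. Limma called 1 of them lower, 5 had an unadjusted p under 0.05, and 5 were lower in every knockdown tumor than in every control tumor. Over all 14915 genes tested, limma called 0.436% lower, 2787 had an unadjusted p under 0.05, and 14.9% were lower in every knockdown tumor. Dll4, a Notch ligand of endothelial cells, fell to 2.65, 2.50 and 3.10 TPM in shST3GAL3 tumors, against 5.22, 4.8 and 6.23 TPM in shControl tumors (log2 change -0.77, SE 0.131, limma adjusted p = 0.0449). The call was lost by limma without shControl tumor 1 (adjusted p = 0.0732), 2 (0.0851) or 3 (0.130) and without shST3GAL3 tumor 1 (0.161), 2 (0.161) or 3 (0.0551). With replicate number as a block in the fit the call was lost too. It was also lost by limma without shST3GAL3 tumors 1 and 3 (adjusted p = 0.238) and without the filter (0.101), with a range of 0.00651 to 0.238 over the alternatives. The endothelial markers above, which were lower on average in the same tumors, were not tested for their part in Dll4. Notch3, the Notch receptor of pericytes, was at 2.41, 2.83 and 3.82 TPM in shST3GAL3 tumors, against 4.94, 5.33 and 8.70 TPM in shControl tumors and was not called (limma adjusted p = 0.117). It is also in the pericyte marker list and is named outside the rule for named genes, after its values were seen.

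Of 15 listed factors of imprint upkeep and DNA methylation, 12 passed the filter in tumors and 11 in culture. Of the 12 tested in tumors, limma called 0, with 1 at an unadjusted p under 0.05, a level reached by 2787 of all 14915 genes. Zfp57, whose core letters TGCCGC were searched for above, was at 22.71, 24.44 and 38.98 TPM in shST3GAL3 tumors, against 25.52, 40.41 and 37.39 TPM in shControl tumors. In culture it was at 46.66, 48.50 and 45.31 TPM in shST3GAL3 cells, against 40.06, 40.79 and 44.26 TPM in shControl cells. Trim28, the corepressor that Zfp57 recruits, had a log2 change of -0.33 in tumors (limma adjusted p = 0.154) and 0.22 in culture (limma adjusted p = 0.820). Uhrf1, which guides the maintenance methyltransferase to DNA, had a change of 0.14 in tumors (limma adjusted p = 0.521). Zfp57 is named because its letters were searched for, outside the rule for named genes.

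Some of these levels carry a limit from the annotation. In GENCODE M21, Copg2 overlaps the end of Mest on the opposite strand, and Igf2os overlaps Igf2. Without stated strand use, reads there cannot be assigned to either gene. Copg2 was at 16.21, 15.13 and 16.37 TPM in shST3GAL3 tumors, against 17.56, 17.03 and 18.12 TPM in shControl tumors, and between 6.91 and 10.20 TPM in culture, where Mest was near 0.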

How the data were processed

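Transcript levels were measured by RNA sequencing in 12 HM1 libraries, with groups and replicate numbers from the sample titles. Per the file headers, the authors deposited 1 table per sample with gene identifier, name, length and a value. The value column is named for the sample. The deposited values were read as TPM because the libraries sum to between 999999 and 1000001, with 2 decimals per value. Per the submitters' processing notes, fastp, HISAT, RSEM and the build GRCm39 were used, with no role or setting stated. TPM keeps no depth, so no counting interval is given.

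The planned count test did not apply to TPM. Each tissue was fitted on its own with limma (version 3.58.1, R 4.3.3; empirical Bayes with trend and robust options) on log2(TPM + 1). Genes needed a group mean of 1 TPM or more. Fold changes on that scale understate those of low genes. A call is a two-sided p under 0.05 after Benjamini-Hochberg adjustment across the tissue's tested genes. Every adjusted p comes from limma. The fit was tested on simulated data.

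The members, lists, tests and alternatives were chosen with earlier results of these data known. Named genes were the 10 members, St3gal3, every called gene of each list or else its 2 of smallest p in tumors, the 5 genes nearest to Mest, and the highest marker of each cell type. Gene lists count genes that other lists hold too. Nespas, of 62 further imprinted genes, was not matched. Sequences are from RefSeq tables (GRCm38.p6), in which H19 and Cdkn1c had no promoter entry. Python 3.11.15 and matplotlib 3.10.9 made the figures. Alternatives were another pseudocount, no filter or a stricter one, a replicate block, median-of-ratios scaling, quantile normalization, a fit of all 4 groups, and leaving out libraries.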

Additional observations from a re-analysis of the deposited data

Results flagged for a closer look

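Mest went opposite ways in the 2 tissues. All 3 knockdown tumors were below all 3 control tumors (log2 change -1.23), while all 3 knockdown cultures were above all 3 control cultures (log2 change 0.23). The difference was not tested, because the tables were normalized separately and the tumor change was among the values that chose the gene. The culture levels, at most 0.33 TPM, are from libraries of unknown depth.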

How the results depend on the processing

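The Mest change kept its direction in tumors in all 14 alternatives (-1.33 to -1.13) and in culture in all 12 (0.17 to 1.17, the highest being the 1.17 of a pseudocount of 0.1, which weighs low values more). Leaving out libraries could not reverse it, since the groups did not overlap, and the replicate block could not change the estimate. The kept direction is thus no support for a change whose tumor values chose the gene. Numbers of called genes moved more. In culture the 2 higher and 2 lower became 6 and 5 with a pseudocount of 0.1, 6 higher with a filter of 1 TPM in 3 libraries, 4 and 4 with all 4 groups in one fit, and 3 to 7 and 2 to 8 without 1 library. In tumors the 160 higher and 65 lower became 71 and 11 without the filter, 106 lower with the stricter filter, 398 and 201 with all 4 groups in one fit, 66 and 6 without shST3GAL3 tumors 1 and 3, and 33 to 171 and 5 to 100 without 1 tumor. Of the other imprinted genes, the 1 called lower in tumors became 0 without the filter, with the replicate block or without shST3GAL3 tumors 1 and 3, 2 after quantile normalization, 4 in the one fit, and 0 to 2 without 1 tumor. Replicate numbers are shared by the groups, but same-numbered libraries did not deviate together (correlations of -0.155 to 0.049), so they share only a number. The replicate block left 1 higher and 1 lower call in tumors. With it the limma adjusted p was 0.0768 for St3gal3 and 0.0936 for each of Phlda2, Igfbp4 and Dll4, so none of these was called. Without shST3GAL3 tumors 1 and 3 it was 0.0531 for St3gal3. Mest, described without a test in tumors, lay past the threshold in 11 of its 14 alternatives there, all but the block and those without shST3GAL3 tumor 2 or without tumors 1 and 3 of that group. Since the tumor values chose Mest, the 11 of 14 support no statement about it. The cause of moves under the alternatives was not tested, beyond the fewer samples or genes by which an alternative is built. Scaling moved the median of all genes by at most 0.05 on the log2 scale. Of the other single-gene values under an alternative, 261 stayed, 16 moved and 21, all of Phlda2, Igfbp4, Dll4 or St3gal3, lost their call. Of the other numbers of called genes in the lists, 467 stayed and 19 moved. With a depth that is unknown, differences among values below 1 TPM cannot be weighed against counting error.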

Other observations

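Igfbp2, a carrier of IGFs that many fetal tissues secrete, was at 4.50, 1.90 and 11.09 TPM in shST3GAL3 tumors, against 0.83, 0.73 and 0.69 TPM in shControl tumors. It was higher in every knockdown tumor and was not called (log2 change 1.72, SE 0.498, limma adjusted p = 0.157). In culture it was at or below 0.24 TPM. It was picked after its values were seen, and no hypothesis is attached to it.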
